A study of Rattus norvegicus with 14 samples.

Results

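The stretch of rat chromosome 10 between 78 and 86 Mb (rn7) was examined in the soleus, a slow calf muscle that holds posture. It was chosen by measured values, namely the difference in DNA methylation between 2 rat lines in earlier results of the same data, so the line differences inside it are a description. Where a whole-table fit marks windows, the marks serve to list them and are no independent test of the interval. Of the 194367 windows of 1000 bases in the table, 1505 start above 78000000 and end at or below 86000000 on chromosome 10. A value in all 14 samples was present in 1141 of them, and these are the windows compared unless stated.

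The rats were females aged 23 to 24 months from generation 44 of lines bred for running capacity out of the genetically mixed N:NIH stock, the high-running capacity (HCR, n = 6) and the low-running capacity line (LCR, n = 8). All were housed under the same conditions with free access to chow, and all samples were taken at baseline from the left muscle. Each line is 1 breeding population, so selection for running and other inherited differences between the populations cannot be told apart. The samples are labelled as replicates without a statement that each is a different rat, and the spread given is that between these samples. No window stands for a cell type, so the labelled tissue was not checked against markers.

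DNA methylation in mammals is the addition of a methyl group to cytosine, almost always in a CpG. CpG-rich promoters are usually free of it in every tissue, while most CpGs elsewhere carry it. At a single CpG, a level between these extremes means that only some of the DNA copies in the sample carry the mark. A window averages its covered CpGs, so a window at such a level may also hold both methylated and unmethylated CpGs. Reduced representation bisulfite sequencing (RRBS) cuts DNA with MspI, an enzyme for CCGG, and reads the short fragments after bisulfite has converted unmethylated cytosine, so a window holds only the CpGs near such cuts. The values are percentages without read counts, so depth is unknown and no counting interval can be given. Genes and sequence at these positions were not analysed here.

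The interval was less methylated than the rest of its chromosome in all 14 samples. Its mean level was 24.02% to 27.3% per sample, against 29.7% to 33.5% over the other 8504 complete windows of chromosome 10. Windows with a mean under 10% made up 39.3% of the interval and 30.7% of the rest of chromosome 10, and windows at 70% or more made up 4.29% and 7.33%. This is a description of the windows that the libraries covered, with no test. Over the interval the 6 HCR samples had a mean of 26.3% with an SD of 0.833, and the 8 LCR samples a mean of 25.3% with an SD of 0.815. That difference of 1.06 percentage points was of the size of the one on the other chromosomes, 1.12 points.

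The megabases of the interval differed more from each other than the lines did. Windows between 80 and 84 Mb had the lowest means, 21.2% to 24.6% per megabase over all samples. The 75 complete windows between 84 and 85 Mb stood at 37.6%, the highest of the 8 megabases, and only 14.7% of them were under 10%. The line means there were 38.8% ± 2.17 for HCR and 36.6% ± 1.74 for LCR. Between 78 and 79 Mb, with 38 complete windows, the order of the lines was the other one, with 33.5% ± 1.52 in HCR and 33.7% ± 1.53 in LCR.

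**Figure D1:**
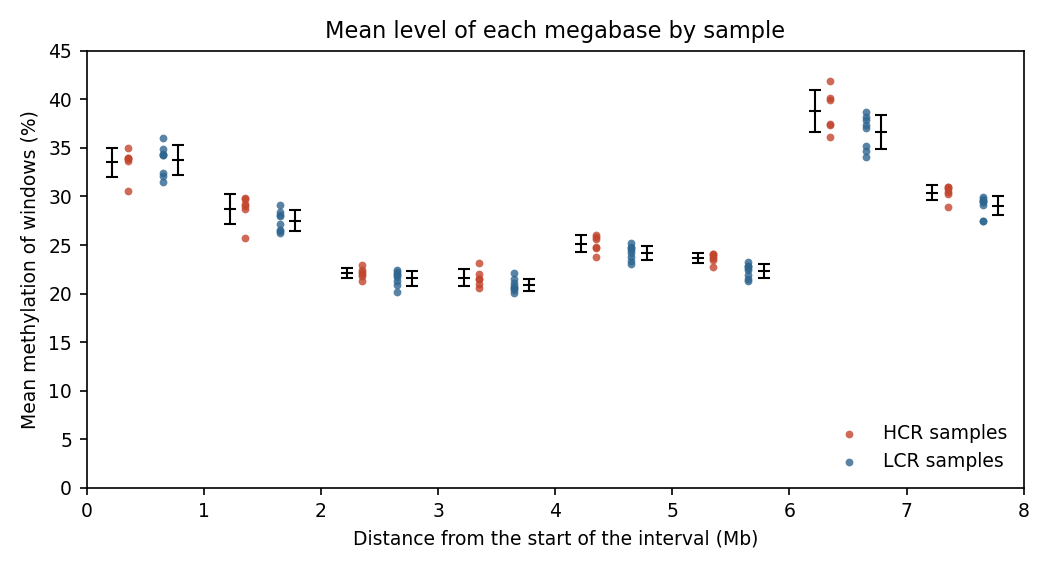
Mean methylation in percent (vertical axis) of the complete windows of each megabase, by distance from the start of the interval in Mb (horizontal axis). Points are samples, and black marks beside them are the line mean and SD (6 HCR, 8 LCR); the seventh megabase is the highest at 37.6% and the third to sixth lie at 21.2% to 24.6%.

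Most of the low part of the interval was close to unmethylated in both lines. In 356 windows (31.2%) every sample was below 10%, the level usual at CpG-rich promoters. The genes there were not analysed here. They formed 232 runs of adjacent windows, most of them single windows or pairs, and 23 runs held 3 or more. The longest covered 5 windows from 79936001 to 79941000, where single values lay between 0% and 4.62% and the means were 1.62% in HCR and 1.09% in LCR. None of the 356 windows was called different between the lines, and in 2 of them the lines did not overlap. Over all complete windows of the table these shares were 0.569% and 0.71%. A level under 10% in every sample leaves no room for a large line difference, so nothing is read from these counts.

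A window was called where limma, fitted over all 135802 complete windows of the table on a log2 logit scale (the log2 of the methylated over the unmethylated part), gave a Benjamini-Hochberg adjusted p under 0.05. In the interval 15 of 1141 windows (1.31%) were called, against 0.569% of all complete windows. Because the interval was picked for this contrast, nothing can be read from the higher share. In HCR 10 of the 15 were higher and 5 lower, where the whole-table shares of calls are 0.405% and 0.164%. After centring each library on its mean, 12 windows were called, 6 higher and 6 lower, and 11 of these were among the 15. Without HCR replicate 2, 8 windows were called, all among the 15. Without HCR replicate 6, 9 were called, and 8 of these were among the 15.

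Separation is another way to count the same contrast. In 16 complete windows (1.40%) every HCR sample lay on one side of every LCR sample, 13 above and 3 below, against 0.71% of all complete windows of the table. After centring the libraries there were 14 such windows, 9 above and 5 below, and 11 of them were among the 16. Of these 16 windows 10 were called. A gap of at least 5 points between the lines was left in 5 of them. Among the 364 windows that lacked a value in some sample, 7 (1.92%) had no overlap in the samples that had one, against 1.24% of such windows in the whole table.

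**Figure D2:**
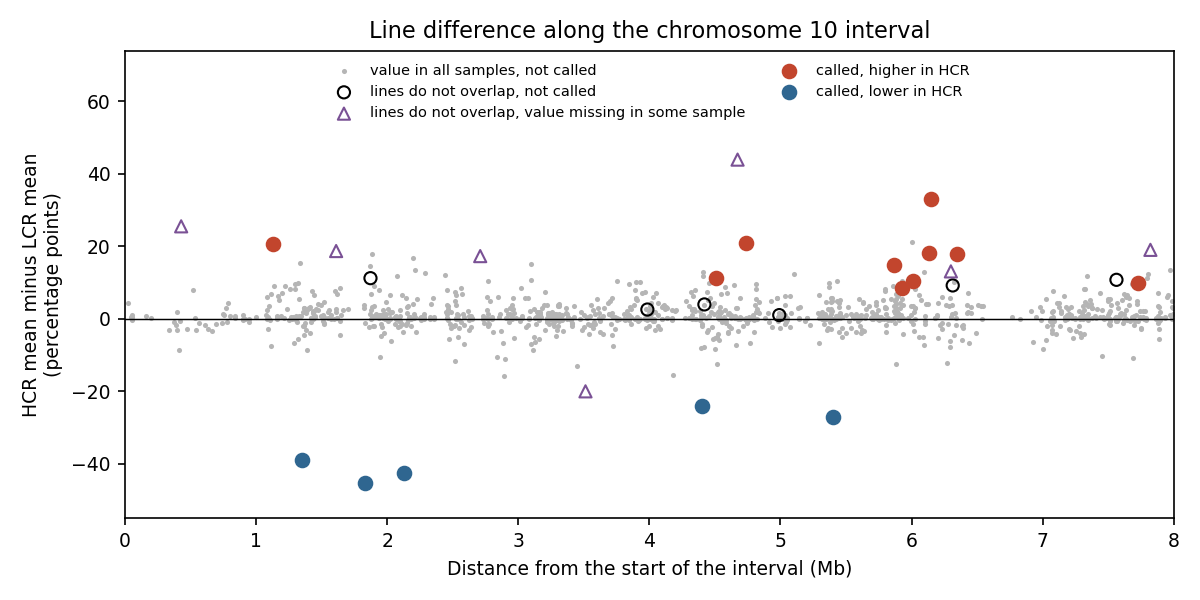
Mean of HCR minus mean of LCR in percentage points (vertical axis) for windows of the interval, by distance from its start in Mb (horizontal axis). Small grey dots are windows with a value in all samples that were not called, filled points are the 15 called windows (10 above 0 and 5 below), rings are windows without overlap that were not called, and triangles are incomplete windows without overlap. The 5 called windows lower in HCR are at -24.0 to -45.3 points, and the called windows higher in HCR are at 8.46 to 33.2 points.

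The windows lower in HCR were few and had the larger differences, with a median of -38.9 points against 16.3 points for those higher in HCR. The strongest contrast in the interval was at 79833001 to 79834000. There the HCR samples ranged from 14.2% over a median of 28.5% to 33.9%, and the LCR samples from 65.97% over 70.06% to 75.0%. The lines were thus 32.1 points apart at their nearest samples, and no sample lay between them. The means were 25.1% ± 8.56 (SD, n = 6) and 70.4% ± 3.89 (SD, n = 8).

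Immediately beside it, the window at 79832001 to 79833000 showed no such contrast. Its HCR samples spread from 46.7% to 81.2% around a median of 70.9%, and its LCR samples from 62.2% to 77.7% around 68.6%. The line difference there was -1.06 points (SE 5.95), so the step from methylated to mostly unmethylated DNA between these adjacent windows was present in HCR and not in LCR. From the first window to the second each HCR sample dropped by 29.1 to 61.4 points, and the LCR samples changed by -10.8 to 11.7 points.

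In the window at 79351001 to 79352000 HCR muscle was nearly unmethylated. HCR samples lay between 5.83% and 15.8% with a median of 8.85%, and LCR samples between 13.5% and 65.7% with a median of 55.9%. All of the LCR overlap came from LCR replicate 4. At 13.5% it stood inside the HCR range, while the other LCR samples were at 40.7% to 65.7%, with a mean of 53.7% ± 8.65 (SD, n = 7).

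The mirror image was found at 80127001 to 80128000, with 1 HCR sample at the LCR level. HCR replicate 4 had 74.6%, and the other HCR samples had 11.9% to 24.2%, with a mean of 18.03% ± 4.88 (SD, n = 5). LCR samples ranged from 59.0% over a median of 70.99% to 77.9%. Without HCR replicate 4 the difference between the line means was -52.0 points, and with it -42.6 points.

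These 2 samples did not cross over together. In the window of LCR replicate 4, HCR replicate 4 had 15.8%, the highest HCR value but far below the other LCR samples. In the window of HCR replicate 4, LCR replicate 4 had 63.96%, among its own line. At 79833001, which lies between the windows of the crossings, HCR replicate 4 had 30.03% and LCR replicate 4 had 66.9%, both within their lines.

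The first 3 of the windows lower in HCR belong to a loose group from 79132001 to 80128000, with 4 calls (1 higher, 3 lower) among 163 complete windows. A second group, from 82399001 to 82738000, holds 3 calls (2 higher, 1 lower) among 78.

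The remaining windows lower in HCR were separated, with smaller gaps than at 79833001. At 82399001 to 82400000 HCR samples had 36.4% to 55.6%, median 42.3%, and LCR samples 64.4% to 74.1%, median 69.7%. At 83403001 to 83404000 the ranges were 24.2% to 47.7% with a median of 35.6%, and 54.9% to 73.6% with a median of 60.7%. Both windows were without overlap, with gaps of 8.76 and 7.28 points, and their mean differences were -24.0 (SE 3.38) and -27.02 points (SE 4.38).

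**Figure D3:**
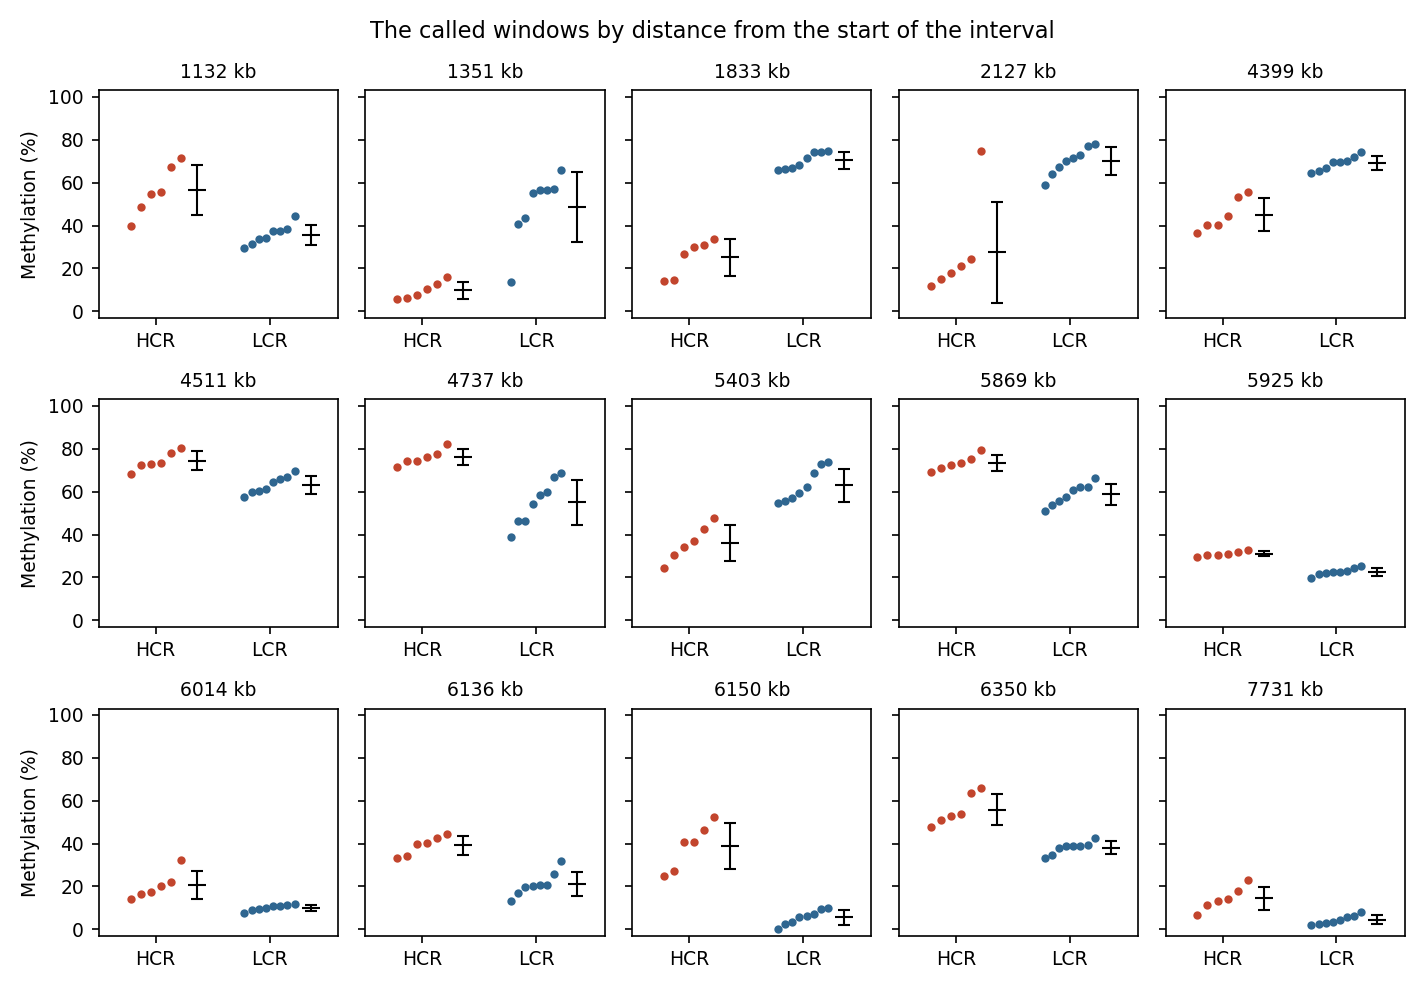
Methylation in percent (vertical axis) of every sample in the 15 called windows, each panel titled with the window's distance from the start of the interval in kb. Points are samples in rising order (6 HCR, 8 LCR) and black bars are the line mean and SD; the single LCR sample at 13.5% in the 1351 kb panel and the single HCR sample at 74.6% in the 2127 kb panel lie with the other line.

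Among the windows higher in HCR, 1 was close to unmethylated in LCR. At 84150001 to 84151000 the LCR samples ran from 0% over a median of 6.13% to 9.93%, and the HCR samples from 24.9% over 40.7% to 52.4%. No samples overlapped, and the nearest ones were 15.01 points apart. The HCR mean was 38.7% ± 10.7 and the LCR mean 5.54% ± 3.40. On the log2 logit scale the lines differed by 3.47, with an SE of 0.50.

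It lay in the group with the most calls. Between 83403001 and 84351000, 7 of 174 complete windows were called, against 0.569% of all complete windows of the table. This group too was drawn to start and end at a called window, so nothing is read from its share. Each called window was at most 500 kb from the next, and 6 were higher in HCR and the one at 83403001 was lower. The closest called pair of the interval is here, with 14 kb between the starts of 84136001 and 84150001. At 84136001 to 84137000 HCR samples had 33.2% to 44.6%, median 40.1%, and LCR samples 13.2% to 31.9%, median 20.3%. LCR replicate 6, at 31.9%, was the LCR sample nearest to HCR, and the gap between the lines was 1.27 points.

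Partly methylated windows made up the rest of this group. At 84350001 to 84351000 the HCR range was 47.7% to 65.7% with a median of 53.3%, and the LCR range 33.1% to 42.6% with a median of 38.7%. At 83869001 to 83870000 the HCR samples had 69.3% to 79.6%, median 72.9%, and the LCR samples 51.2% to 66.4%, median 59.1%. At 84014001 to 84015000 they had 14.1% to 32.5%, median 18.8%, and 7.35% to 11.7%, median 10.4%. None of the 3 windows had an overlap, with gaps of 5.10, 2.94 and 2.44 points. From 84013001 to 84014001 every sample dropped, by 27.8 to 56.9 points in HCR and by 34.05 to 61.1 points in LCR. On the other side, at 84015001 to 84016000, levels were high again. The means there were 66.5% ± 2.51 in the 5 HCR samples and 68.2% ± 4.77 in the 7 LCR samples with a value. The window at 84014001 was thus a dip of 1 window in both lines. Beside 83869001, the window at 83868001 to 83869000 had means of 23.5% ± 5.16 in HCR and 19.9% ± 6.52 in LCR.

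The smallest difference among the calls, 8.46 points (SE 0.765), was at 83925001 to 83926000, where the samples of each line were close together. HCR samples lay between 29.7% and 32.8%, median 30.7%, and LCR samples between 19.6% and 25.2%, median 22.6%. Both windows beside it were also higher in HCR. At 83926001 to 83927000, which was not called, the HCR samples had 26.8% to 38.5%, median 35.2%, and the LCR samples 19.8% to 27.8%, median 23.7%; HCR replicate 3, the lowest of its line, was the HCR sample inside the LCR range. On the other side, at 83924001 to 83925000, the lines overlapped widely, with 49.4% to 80.9% in HCR and 38.2% to 63.5% in LCR. The call at 83925001 was lost in each of the 14 fits that left out 1 sample. At 84014001 it was present in 1 of these 14 fits, and at 79132001 and 82511001 in 2 each. All 4 of these calls were lost after centring the libraries. The call at 85731001 was present in 6 of the 14 fits, that at 80127001 in 10 and that at 82737001 in 12.

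Of the called windows outside that group, 4 were higher in HCR. At 82737001 to 82738000 HCR samples had 71.3% to 82.1%, median 75.3%, and LCR samples had 39.03% to 68.6%, median 56.5%, without overlap. The spread was wider in LCR (SD 10.5, n = 8) than in HCR (SD 3.67, n = 6). At 82511001 to 82512000 the line means were 74.3% ± 4.44 and 63.2% ± 4.13, and LCR replicate 1 at 69.7% was above HCR replicate 1 at 68.1%.

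At 79132001 to 79133000 HCR samples spread from 40.0% to 71.7%, median 55.3%, and LCR samples from 29.3% to 44.3%, median 35.7%. HCR replicate 3 and LCR replicate 6 produced the overlap. At 85731001 to 85732000 both lines were low, with 6.84% to 23.1% in HCR, median 13.6%, and 2.11% to 8.20% in LCR, median 3.90%. Its neighbour at 85730001 to 85731000 had the opposite order of means, 8.58% ± 4.02 in HCR and 9.33% ± 3.69 in LCR.

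**Figure D4:**
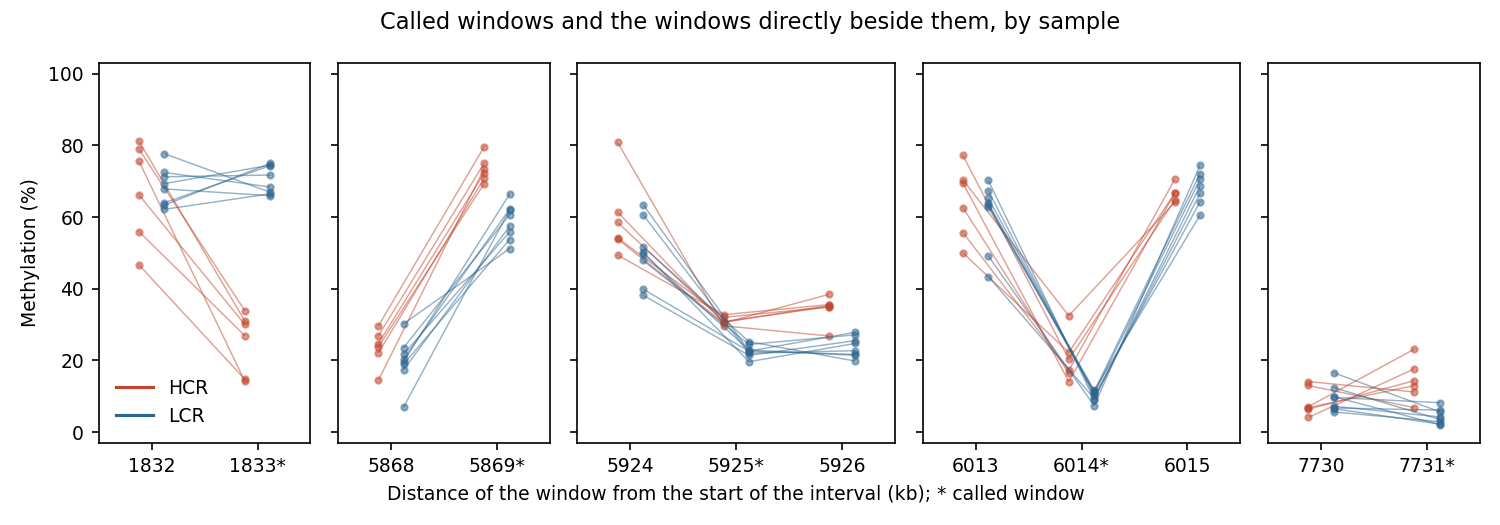
Methylation in percent (vertical axis) of every sample in the called windows that have a directly adjacent window in the table (asterisks) and in those neighbours, by distance of the window from the start of the interval in kb (horizontal axis). Lines join the values of 1 sample; HCR samples drop by 29.1 to 61.4 points from 1832 to 1833 kb, where LCR samples change by -10.8 to 11.7 points.

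Called windows were often without a measured neighbour. For 10 of the 15 (66.7%) no window of the table was directly adjacent, against 38.3% of the complete windows of the interval and 56.4% of the called windows of the whole table. The 6 complete neighbours that the others had included 5 with the same direction, and the median difference toward the called window was 3.60 points. Of the 47 pairs of a called and an uncalled window at 2 to 10 kb, 26 (55.3%) shared the direction, with a median of 0.123 points. At 11 to 50 kb it was 127 of 231 pairs (54.98%). Single windows at these distances ran from -12.6 to 18.7 points and from -15.3 to 21.2 points, where values above 0 are toward the called window. Pairs of called windows, such as 84136001 and 84150001, are not in these counts. In the interval as a whole 67.3% of windows had a higher mean in HCR, close to the 65.8% on the rest of chromosome 10. That share is no baseline for the shares of direction above, since 5 of the 15 called windows were lower in HCR.

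By the mean over all samples, 7 of the 15 called windows lay at 50 to 70%, 3 at 30 to 50%, 4 at 10 to 30%, 1 under 10% and 0 at 70% or more. The same classes held 184, 211, 249, 448 and 49 of the 1141 complete windows. A large line difference itself moves this mean toward the middle, as at 79833001, so nothing is read from these counts.

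The 6 windows without overlap that were not called differed by 0.990 to 11.2 points and were all higher in HCR, a range that takes in the smaller differences of called windows. The gap between the nearest samples of the lines ran from 0.0413 points at 82991001 to 3.75 points at 84314001. At 79873001 to 79874000 the means were 26.3% ± 5.23 in HCR and 15.1% ± 2.52 in LCR. At 85563001 to 85564000 they were 28.6% ± 3.05 and 17.9% ± 5.59, and at 84314001 to 84315000 40.7% ± 3.27 and 31.5% ± 1.77. Another, at 82420001 to 82421000, differed by 3.94 points. The last ones were almost unmethylated in both lines, 6.49% ± 0.748 and 3.97% ± 0.735 at 81985001 to 81986000, and 2.93% ± 0.395 and 1.94% ± 0.287 at 82991001 to 82992000.

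Of the 7 incomplete windows without overlap, 2 differed by at least 25 points. At 82673001 to 82674000 the 8 LCR samples had 7.47% to 23.5%, median 15.2%. Of the HCR samples 4 had a value, and 3 of them were at 66.7% to 72.2% while HCR replicate 3 was at 29.8%. This window is 64 kb from the called one at 82737001. At 78429001 to 78430000 the 5 HCR samples with a value averaged 51.4% ± 12.7 and the 8 LCR samples 25.9% ± 4.18. The other 5 incomplete windows differed by 13.1 to 20.1 points in size, 4 higher and 1 lower in HCR.

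Samples nearer to the other line were then counted. A sample was said to follow the other line in a called window where its level was nearer to the other line's mean than to its own line's mean without it. This was so for 11 values in 9 of the 15 windows. Over all called windows of the table it was so for 699 values in 530 of 773 windows, so such values were common. HCR replicate 1 gave 3 of the 11 and LCR replicate 4 gave 2, and 6 samples gave 1 each. HCR replicates 2, 5 and 6 and LCR replicates 5, 7 and 8 gave none. Where the lines differ by at least 25 points only the values of LCR replicate 4 at 79351001 and of HCR replicate 4 at 80127001 were of this kind.

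HCR replicate 4 had the highest HCR value in 7 of the 15 called windows. It also had the highest mean level of all samples in the interval, 27.3%, and on the other chromosomes, 37.4%. The part of this general level in its window values was not tested. In no called window other than 80127001 was it nearer to the LCR mean.

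Within a line, deviations of neighbouring windows of the interval were weakly correlated, with medians near 0. For 168 pairs of adjacent windows with mean levels of 5 to 95%, deviations from the line mean over the 14 samples had a median Pearson r of 0.06 (quartiles -0.21 and 0.27). The median was 0.06 in 1213 such pairs on the rest of chromosome 10. At over 1 to 5 kb it was -0.01 in 487 pairs, and at over 100 kb to 1 Mb 0.00 in 71357 pairs. Line by line, the median for adjacent pairs was 0.05 in HCR (n = 6) and 0.07 in LCR (n = 8). The pairs come from the same libraries and share their depth and conversion, each library's mean deviation having been subtracted. With windows of every level included, the median for adjacent pairs was 0.28.

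**Figure D5:**
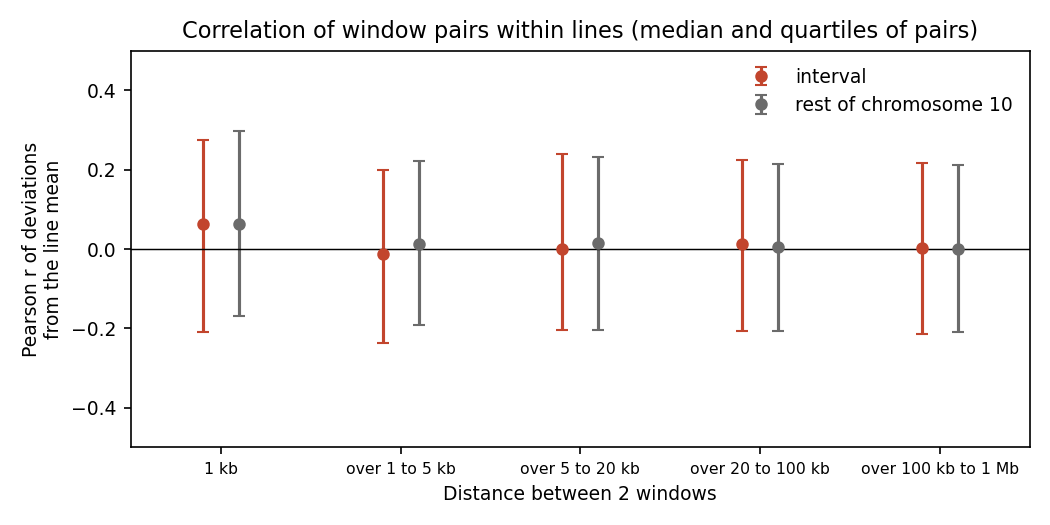
Pearson r of the deviations from the line mean over 14 samples (vertical axis) for pairs of windows by their distance (horizontal axis), in the interval and on the rest of chromosome 10. Points are medians and bars quartiles over pairs; medians lie between -0.01 and 0.06 and the quartiles of both parts overlap at every distance.

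For the called windows the same within-line correlations ranged widely. Over their 105 pairs the median r was 0.16, from -0.45 to 0.82, and over the 22 pairs at most 500 kb apart it was also 0.16, from -0.29 to 0.50. The highest r, 0.82, joined 80127001 and 84014001, which are 3887 kb apart. It rested on HCR replicate 4, the highest HCR sample in both, and was 0.16 over the other 13 samples. The next highest were 0.71 for 84014001 with 85731001, and 0.65 and 0.64 for 79132001 with 79833001 and with 82399001. HCR replicate 4 was also the highest HCR sample in both windows of the 0.71 pair, and that r was not calculated without it.

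Missing values were the measure that the choice of the interval did not use. The number of windows of the interval without a value was 63.0 ± 32.9 per HCR sample and 54.9 ± 42.7 per LCR sample (SD, n = 6 and n = 8). The difference of 8.13 windows (SE 20.2) stayed within the SD of either line, and a two-sided exact permutation test gave p = 0.702. In all 14 samples the share without a value was lower in the interval than in the rest of the table, 0.731% to 9.04% against 1.40% to 12.1%. Of the interval's windows 24.2% lacked a value in some sample, against 30.2% elsewhere.

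At the borders of the interval the lines did not stand apart. The HCR and LCR means were 39.9% ± 5.51 and 42.4% ± 8.71 in the last window before it, at 77991001 to 77992000, and the first complete window inside, at 78023001 to 78024000, had 58.3% ± 8.17 and 53.98% ± 6.95. At the other end, the last window inside, at 85993001 to 85994000, had 2.48% ± 1.39 and 1.26% ± 0.522. The first one outside, at 86001001 to 86002000, had 1.23% ± 0.529 and 1.06% ± 0.284.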

How the data were processed

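Per the labels' protocols, MspI-digested DNA was adapter-ligated, and pools of libraries were bisulfite-converted and amplified. The tools listed in the submitters' processing notes are FastQC, Trim Galore 0.6.10, Bismark and Bowtie2, with the build rn7. The authors deposited percent methylation per library in windows of 1000 bases. For the coverage minimum and the window tool, the sources used here give nothing. Each window has a value in at least 4 samples of each line. A window averages its covered CpGs, so libraries that cover other CpGs can differ in level.

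The members and rules were chosen with earlier results of these data known. Columns were matched by library name, with 0 sample columns unused. Levels were transformed to log2((level + 0.01)/(1 - level + 0.01)) and fitted with limma 3.58.1 (R 4.3.3), line as the only factor and a variance trend; p-values were 2-sided and adjusted over 135802 windows. The procedure was tested on simulated data. Named windows were all called ones, their direct neighbours, incomplete windows without overlap differing by at least 25 points, and the borders. At the start of the interval the first complete window was given, since the first one lacked values in some samples. Uncalled windows without overlap were added after their values were seen. Descriptions and exact tests used scipy 1.17.1, pandas 2.3.3 and numpy 2.4.6 under Python 3.11.15. Correlations used windows with means of 5 to 95%. Alternatives were other scales, offsets, variances, window sets and library scalings, each sample left out in turn, and a block for the replicate number. The closest 2 samples differed by 3.85 points on average, so no 2 columns were the same. Whether 2 libraries came from 1 rat was not tested. Gene positions were given for GRCr8 only, a different assembly, and were not used.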

Additional observations from a re-analysis of the deposited data

Results flagged for a closer look

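In 48 sets of values (the called and the incomplete separated windows, the mean level and the missing values, each per line), 2 held a sample far from the rest of its line, and about 1 in 20 such sets would by chance. At 80127001 HCR replicate 4 had 74.6%, and its distance to the next HCR sample was 0.803 of the range of the 6. In the incomplete window at 82673001 HCR replicate 3 had 29.8%, and its distance was 0.869 of the range of the 4 HCR samples with a value.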

How the results depend on the processing

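The count of 15 called windows became 5 with a minimum difference of 25 points and 8 to 13 without each sample. Some windows called without a sample were not among the 15. Of the 15, 8 were called in all 14 of the fits without a sample, and the other 7 lost the call in some. Each line has samples numbered 1 to 6, and the deviations of an HCR and an LCR sample with the same number correlated at -0.03 to 0.03. No values for differently numbered samples are given beside these. Whether same-numbered samples shared a pool of libraries or another step was not tested. With the replicate block 2 windows were called, and 8 in the same 12 samples without it, a setting added after seeing the data. The 16 windows without overlap became 5 with a gap of 5 points and 16 to 24 without each sample. The line difference in mean level was 1.91 points when each sample was summarised by its median over windows, 0.876 to 1.36 points without each sample, and -0.0596 points relative to the rest of the genome in the same library, which removes the genome-wide difference. The difference in missing values was -1.68 to 19.7 windows without each sample, below 0 without HCR replicate 3, with exact permutation p from 0.281 to 0.971 over its 15 alternatives. The correlation of adjacent windows was 0.28 with no limit on the level and 0.05 to 0.09 without each sample; the cause was not tested. Samples following the other line were 2 in windows differing by at least 25 points. Depth was unknown, so small differences could not be set against counting error.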

Other observations

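Single samples that stood apart from their whole line were counted; this count was chosen after seeing the data. In 30 of the 1141 complete windows a sample was more than 20 points away from every other sample of its line, 33 values in all, 23 in HCR and 10 in LCR. HCR replicate 4 gave 8 of them, HCR replicates 1 and 3 and LCR replicate 7 gave 5 each, and LCR replicates 1, 3, 5 and 6 gave 0. Of the 33 values 6 lay inside the range of the other line, and 2 were in the 15 called windows. The rate was 2.89 values per 100 windows in the interval and 3.28 over the whole table. There HCR replicate 3 gave most, 742 of 4452, and 2693 values were in HCR and 1759 in LCR. More of these values were thus in HCR over the whole table too, so that direction was not particular to the interval. The lines have unequal numbers of samples (6 HCR, 8 LCR), and the cause of the split was not tested.

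At 84003001 to 84004000 HCR replicate 4 had 66.7%, the other HCR samples 4.76% to 41.8% and the LCR samples 3.11% to 17.5%. At 79300001 to 79301000 HCR replicate 1 had 65.4%, the other HCR samples 11.2% to 28.2% and the LCR samples 6.17% to 29.5%. In each of these windows 1 sample was more than 20 points away from all others of its line. At 84003001 another HCR sample, at 41.8%, also lay above every LCR sample.

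The adjacent pair with the highest correlation within lines, from 79643001 to 79645000, had r = 0.70 over 14 samples, 0.74 in HCR and 0.72 in LCR, and its line differences were -4.47 and -0.684 points.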
